A study of Mus musculus with 6 samples.

Results

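The 10 genes described here are the C/EBP transcription factor genes Cebpa, Cebpb and Cebpd, the nuclear receptor gene Pparg, and 6 genes that mark or serve lipid-storing cells, namely Plin4, Fabp4, Lpl, Adipoq, Cd36 and Lipe. They were taken by name, and every probe set that the platform annotation assigns to one of them alone was used, which gave 18 of the 22626 probe sets tested and 10 of 12393 genes measured. Expression was measured on 6 Affymetrix mouse arrays that held labelled cRNA from a cultured line called PPP3R1, named like the gene for calcineurin's regulatory subunit, whose state in this line the labels leave unstated. The starved group (3 arrays) had been kept in starvation medium of unstated composition for 6 h, and the other 3 arrays held control cells. The sample titles call the control PPP3R1 CTL without naming a medium, and the design text names PPP3R1 cells in normal medium. The growth and treatment protocols instead name wild-type mouse embryonic fibroblasts. Wherever the protocols are right, a difference of cell line and starvation cannot be told apart. The titles number the arrays as biological replicates without saying whether cultures were separate, so p-values measure only the spread between these samples, which may be technical.

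Adipogenesis is the conversion of fibroblast-like precursors into fat cells. In the standard model from mouse preadipocyte lines, C/EBPβ and C/EBPδ are induced early and switch on C/EBPα and PPARγ, which then maintain each other and activate the genes of the fat cell. The same factors also serve outside fat: C/EBPβ and C/EBPδ take part in acute phase and stress responses of many cells, fibroblasts included.

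Levels are RMA values on a log2 scale, changes are starved minus control, given with limma's standard error, and a gene was said to have changed where limma's adjusted p over all probe sets was below 0.05. By this rule 39.5% of all probe sets passed, of which 20.3% of all were higher in starved arrays and 19.2% lower. With each gene represented by its brightest probe set, 40.8% of genes passed, 20.8% higher and 20.1% lower. The groups did not overlap in 50.4% of probe sets. Arrays of a group correlated across probe sets at 0.998, and arrays of different groups at 0.986 to 0.988. The values carry no detection calls, so 5 was used as a limit below which a probe set was called dim, and 31.3% of probe sets were dim in both groups.

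Of the 10 genes, 5 fell, 1 rose and 4 did not pass. Cebpd, Fabp4, Plin4, Cebpa and Cebpb fell, Lipe rose, and Pparg, Lpl, Adipoq and Cd36 did not pass. Each of the 5 that fell was at least 1.5-fold lower; 10.9% of all genes passed with a change of that size in either direction. The median change of the 10 genes was -0.37, beside -0.01 for all genes. The 10 genes were chosen with earlier results of these data known, so this contrast may follow from the choice and tests nothing. Counted by probe set, 8 of 18 fell, 1 rose and 9 did not pass, where 19.2% of all probe sets fell and 20.3% rose. The groups did not overlap in 9 of the 18, a share near the 50.4% of all probe sets. Of the 9 that did not pass, 6 were dim in both groups. In RNA from a whole culture, fewer cells that express a gene and less RNA per cell cannot be told apart.

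**Figure D1:**
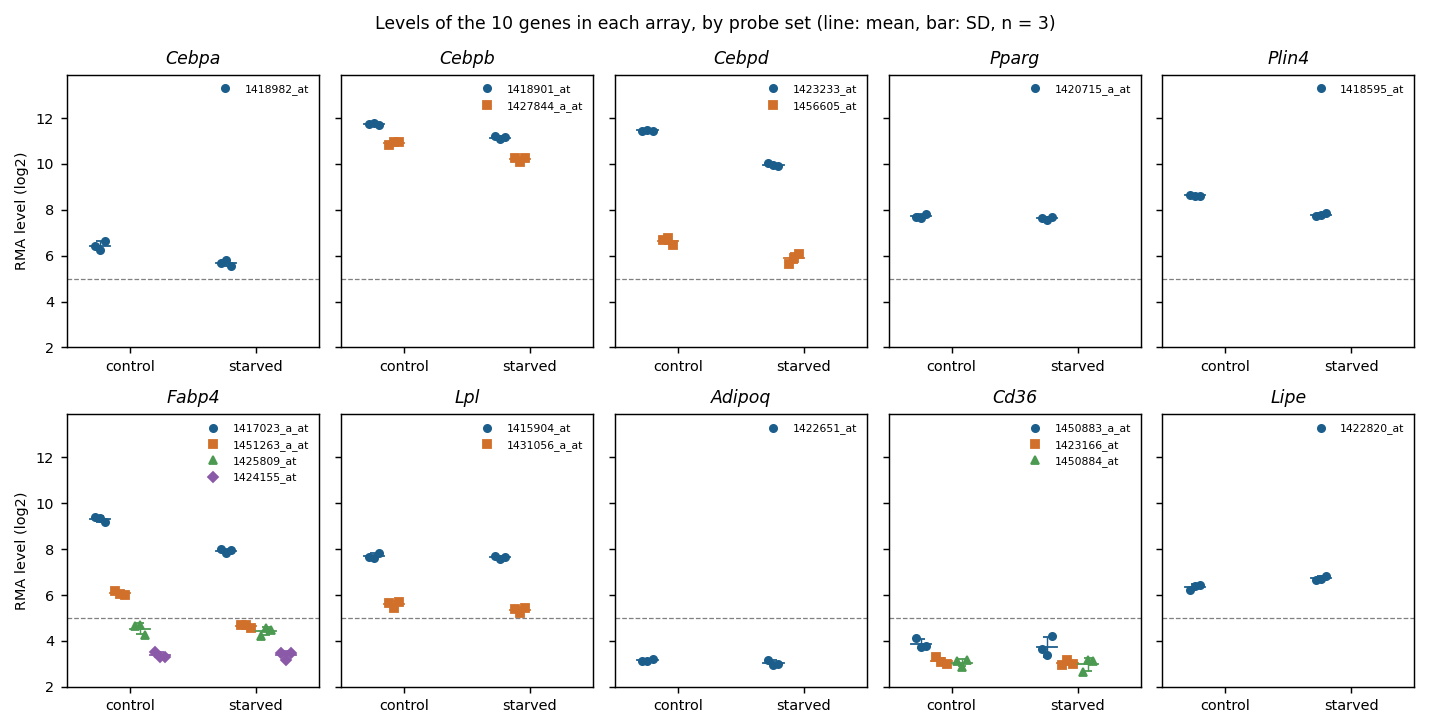
RMA level (log2) of each of the 18 probe sets in 3 control and 3 starved arrays, 1 panel per gene. Points are arrays, horizontal lines are group means, bars are SD, and the dashed line marks the limit of 5 for dim probe sets; the brighter Cebpd probe set and the 2 brighter Fabp4 probe sets drop by more than 1 unit, while Adipoq and Cd36 lie below the dashed line in every array.

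The early factor gene Cebpd had the largest change of the 10. Its brighter probe set (1423233_at) was at 11.45, 11.49 and 11.46 in control arrays 1, 2 and 3 and at 10.02, 9.95 and 9.93 in starved arrays 1, 2 and 3. Every starved array lay below every control array, and the spread within each group was small against the gap. The change was -1.49 ± 0.05 on the log2 scale, a 2.82-fold fall (n = 3 per group, limma adjusted p = 1.87e-06). With each gene taken by its brightest probe set, it was the 58th largest fall of 12393 genes. The dimmer probe set (1456605_at) was at 6.67, 6.75 and 6.49 in control and at 5.66, 5.92 and 6.09 in starved arrays. It also fell without overlap, with a change of -0.75 ± 0.12 (limma adjusted p = 0.0014), and the difference between the falls of the probe sets was not tested. The average of both probe sets changed by -1.12 (limma adjusted p = 1.03e-05). Cebpd is a gene on mouse chromosome 16 (chr16:15887286-15889545, GRCm38.p6).

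Cebpb encodes the partner of C/EBPδ in the early step, and its transcript is translated into activating and inhibitory forms that an array cannot separate. The brighter probe set (1418901_at) was at 11.75, 11.79 and 11.72 in control and at 11.20, 11.09 and 11.16 in starved arrays. The other (1427844_a_at) was at 10.81, 10.96 and 10.94 in control and at 10.27, 10.09 and 10.27 in starved arrays. The starved arrays were lower in each case with no overlap. The changes were close in size, -0.60 ± 0.06 (1.52-fold, limma adjusted p = 0.000113) and -0.69 ± 0.07 (1.62-fold, limma adjusted p = 0.000212). Cebpb lies at chr2:167688915-167690432.

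Cebpa encodes the factor that sustains the differentiated fat cell and also restrains cell division. Its single probe set (1418982_at) was at 6.41, 6.26 and 6.66 in control and at 5.67, 5.82 and 5.56 in starved arrays. All starved values lay below all control values, although the control arrays spread more than for Cebpb or for the brighter Cebpd probe set. The change was -0.76 ± 0.11, a 1.70-fold fall (limma adjusted p = 0.000994). Cebpa lies at chr7:35119293-35121928.

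Pparg encodes the nuclear receptor PPARγ, which binds DNA together with a retinoid X receptor and is required for fat cell formation. Its single probe set (1420715_a_at) was at 7.67, 7.64 and 7.82 in control and at 7.65, 7.56 and 7.68 in starved arrays. The groups overlapped, and the change of -0.08 ± 0.07 did not pass (limma adjusted p = 0.399). The 95% interval of the change ran from -0.24 to 0.08, so that a fall as large as that of Cebpa, Cebpb or Cebpd lies outside it. The annotation places the gene at chr6:115360879-115490404 with several start sites, and the probe set does not tell its transcript forms apart here.

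**Figure D2:**
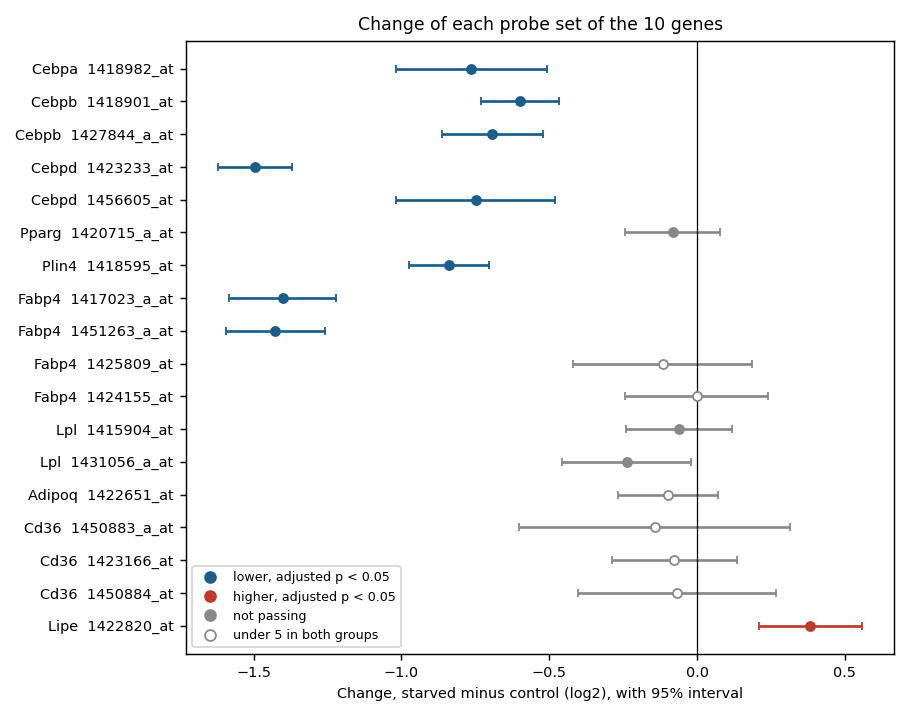
Change, starved minus control on the log2 scale, of each of the 18 probe sets with its 95% interval from limma. Filled points are probe sets at 5 or more in a group and open points are dim in both; the 8 intervals in blue of Cebpa, Cebpb, Cebpd, Plin4 and Fabp4 lie wholly below 0 and that of Lipe lies above it, while the grey interval of the dimmer Lpl probe set also misses 0, before adjustment.

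Sequence upstream of an annotated start is shown for members that fell together, Cebpa, Cebpb and Plin4, and for the third annotated start of Pparg, which did not pass. The starts used for Plin4 and Pparg lie inside the gene spans given in the text. The Plin4 run therefore lies partly, and the Pparg run wholly, within its gene span. The RefSeq promoter table (GRCm38.p6) held 7 of the 10 genes. It lacked Cebpd, Fabp4 and Lpl, so no sequence is shown for Cebpd and Fabp4, which also fell. Each run gives the 250 bases before the start, 5′ to 3′ on the gene's strand, and capitals mark matches on either strand to TTNNGNAA (a C/EBP core), TTGCG (a C/EBP half-site), CCAAT (a box bound by NF-Y), AGGTCA (the half-site of nuclear receptors such as PPARγ), TATAAA or CACGTG. Matches of different motifs may share bases, which happened in none of these 4 runs.
Cebpa, chr7:35119043-35119292, plus strand: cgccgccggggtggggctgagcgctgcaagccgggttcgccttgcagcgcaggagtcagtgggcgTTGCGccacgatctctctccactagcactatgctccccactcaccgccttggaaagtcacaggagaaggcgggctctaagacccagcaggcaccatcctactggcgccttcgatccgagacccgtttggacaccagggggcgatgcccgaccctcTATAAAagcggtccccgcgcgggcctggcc
Cebpb, chr2:167688665-167688914, plus strand: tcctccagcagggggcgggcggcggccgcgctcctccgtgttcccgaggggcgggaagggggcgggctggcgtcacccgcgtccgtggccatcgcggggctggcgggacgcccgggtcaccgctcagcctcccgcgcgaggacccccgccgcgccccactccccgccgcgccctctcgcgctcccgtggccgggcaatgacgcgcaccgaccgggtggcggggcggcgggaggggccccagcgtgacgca
Pparg, chr6:115421816-115422065, plus strand: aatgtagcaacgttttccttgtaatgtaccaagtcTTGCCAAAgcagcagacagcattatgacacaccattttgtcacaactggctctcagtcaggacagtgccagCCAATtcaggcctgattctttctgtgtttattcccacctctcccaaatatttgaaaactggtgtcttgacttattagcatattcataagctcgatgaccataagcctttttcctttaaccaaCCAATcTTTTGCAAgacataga
Plin4, chr17:56109783-56110032, minus strand: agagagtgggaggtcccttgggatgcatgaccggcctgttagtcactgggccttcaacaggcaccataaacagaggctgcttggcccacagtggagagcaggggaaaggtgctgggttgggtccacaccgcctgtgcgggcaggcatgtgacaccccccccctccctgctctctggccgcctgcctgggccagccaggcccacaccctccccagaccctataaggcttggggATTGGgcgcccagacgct

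The Cebpa run held a TTGCG from 185 to 181 bases and a TATAAA from 30 to 25 bases before the start. The Cebpb run held none of the 6 motifs. The Plin4 run held only a CCAAT on the strand opposite to the printed one (printed as ATTGG), 18 to 14 bases before the start. The Pparg run held 2 matches to TTNNGNAA, TTGCCAAA and TTTTGCAA, and 2 to CCAAT. These motifs are common: of 32851 promoters in the table, 36.8% held TTNNGNAA in the same 250 bases, 14.5% TTGCG, 33.8% CCAAT, 14.0% AGGTCA, 12.4% TATAAA and 6.02% CACGTG. Of the promoters not shown, 1 start of Lipe held a CACGTG and the other none of the 6 motifs, and Adipoq held 1 TTNNGNAA and 3 CCAAT. Cd36 held 1 TTNNGNAA, 1 CCAAT and 1 AGGTCA, the first Pparg start held 1 AGGTCA, and the second held 1 AGGTCA, 1 CCAAT and 1 TATAAA. A match describes letters and does not show a bound site.

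Fabp4 encodes a fatty acid carrier protein that is abundant in fat cells and macrophages and is a standard target of PPARγ. Its brightest probe set (1417023_a_at) was at 9.42, 9.36 and 9.19 in control and at 7.99, 7.83 and 7.95 in starved arrays. The next (1451263_a_at) was at 6.19, 6.05 and 6.01 in control and at 4.70, 4.70 and 4.56 in starved arrays. Neither overlapped, and the changes were -1.40 ± 0.08 (2.64-fold, limma adjusted p = 9.91e-06) and -1.43 ± 0.07 (2.69-fold, limma adjusted p = 6.47e-06). The starved group of the second was dim, so the size of its fall is less certain. The other probe sets (1425809_at and 1424155_at) were dim in all arrays, between 4.23 and 4.69 and between 3.16 and 3.51, and did not pass (limma adjusted p = 0.536 and 0.995). The mean of all 4 probe sets fell by 0.74 (limma adjusted p = 0.000102), a smaller value because it takes in the dim ones. Fabp4 lies at chr3:10204342-10208616.

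Plin4 encodes perilipin 4, a coat protein of nascent lipid droplets. Its probe set (1418595_at) was at 8.67, 8.62 and 8.61 in control and at 7.75, 7.76 and 7.87 in starved arrays. The groups lay well apart, with a change of -0.84 ± 0.06, a 1.79-fold fall (limma adjusted p = 2.74e-05). Plin4 lies at chr17:56100587-56109948.

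Lipe, which encodes hormone-sensitive lipase, the enzyme that cleaves diglycerides during fat release, was the single member that rose. Its probe set (1422820_at) was at 6.23, 6.40 and 6.42 in control and at 6.66, 6.72 and 6.83 in starved arrays. The starved arrays were all higher, with a change of 0.38 ± 0.08 or 1.30-fold (limma adjusted p = 0.00456). This was smaller than any of the 5 falls. Lipe lies at chr7:25379527-25398486.

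Lpl encodes lipoprotein lipase, which frees fatty acids from circulating lipoproteins. Its brighter probe set (1415904_at) was at 7.66, 7.60 and 7.84 in control and at 7.70, 7.55 and 7.67 in starved arrays. The groups overlapped, and the change of -0.06 ± 0.08 did not pass (limma adjusted p = 0.596, 95% interval -0.24 to 0.12). The dimmer probe set (1431056_a_at) was at 5.66, 5.42 and 5.69 in control and at 5.40, 5.21 and 5.44 in starved arrays. Its change of -0.24 ± 0.09 did not pass either (limma adjusted p = 0.0807), although it passed without dim probe sets in the test (0.0487), with a replicate block in the model (0.0256) and with control replicate 2 left out (0.0244; range over its alternatives 0.0244 to 0.226).

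Adipoq and Cd36 were dim in every array. Adipoq encodes adiponectin, a hormone made by mature fat cells; its probe set (1422651_at) was at 3.12, 3.12 and 3.21 in control and at 3.19, 2.97 and 3.00 in starved arrays. Cd36 encodes a scavenger receptor and fatty acid transporter; its brightest probe set (1450883_a_at) was at 4.11, 3.73 and 3.80 in control and at 3.63, 3.38 and 4.19 in starved arrays. The groups overlapped in both genes, and limma's adjusted p was 0.346 for Adipoq and 0.564 to 0.757 for the 3 Cd36 probe sets. The 95% interval of the change was -0.27 to 0.07 for Adipoq and -0.60 to 0.32 for this Cd36 probe set. Such dim values do not show that the transcripts were absent.

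The labelled cell type was set beside marker genes. Fibroblast markers were dim in both groups in 1 of 12 genes, Thy1 (4.80 in control, 4.87 in starved). The list had a mean level between 11.72 and 11.75 in control and between 11.80 and 11.80 in starved arrays. The brightest were Col1a2, a chain of type I collagen, at 14.02 ± 0.01 (SD, n = 3) in control and the intermediate filament gene Vim at 13.80 ± 0.04 (SD, n = 3). Of the 12 fibroblast markers 4 rose and 3 fell. Among mature fat cell markers beside Adipoq, the droplet fusion gene Cidec averaged 3.29 in control against 3.18 in starved arrays, and the hormone gene Retn 5.40 against 5.25, neither passing (limma adjusted p = 0.320 and 0.362). Because macrophages and endothelium can also express Fabp4, Cd36 and Lpl, their markers were set beside the members. All 7 endothelial markers were dim in both groups, with mean levels of 3.81 to 3.98 in control and 3.86 to 4.12 in starved arrays, among them Kdr at 4.70 and Esam at 4.57 in control cells; 1 of them rose.

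Macrophage markers were dim in 6 of 11 genes, the pan-leukocyte gene Ptprc (3.07 in control, 3.03 in starved) and Adgre1 (3.37 and 3.25) among them. Of the 11, 2 rose and 1 fell, with mean levels of 4.71 to 4.75 in control and 4.64 to 4.71 in starved arrays. The brightest were Cd14, which fell by 0.32 ± 0.06 (limma adjusted p = 0.00303), and Cd68, which rose by 0.43 ± 0.06 (limma adjusted p = 0.00076). Bone, cartilage and muscle markers were dim in 6 of 10, with mean levels of 4.65 to 4.77 in control and 4.62 to 4.69 in starved arrays, and 1 fell (the brightest, Des and Sp7, did not pass: Des differed by 0.02 and Sp7 by 0.09). The part of other cell types in the members' changes was not tested.

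**Figure D3:**
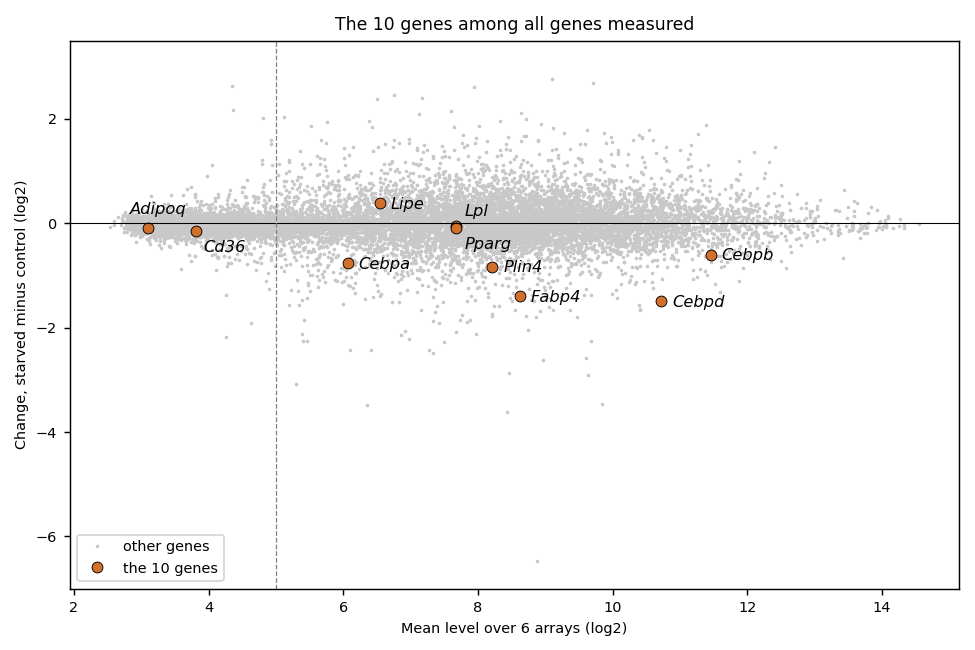
Change against mean level for 12393 genes, 1 probe set each (grey), with the 10 genes in orange; both axes are log2 and the dashed line marks the limit of 5. Cebpd and Fabp4 lie near the lower edge of the cloud at their levels, Pparg and Lpl lie close to 0, and Adipoq and Cd36 lie left of the dashed line.

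The genes around the members were taken from 7 lists, with 115 of 139 entries measured. Of these 26 rose and 26 fell, 45.2% in all beside 40.8% of all genes. Each list held genes that rose and genes that fell.

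Relatives and regulators of the C/EBP factors fell in 4 and rose in 1 of 7, with a median change of -0.18, and 2 fell at an adjusted p of 0.01. Trib2, a pseudokinase that directs C/EBPα to degradation, fell from 9.76 ± 0.04 to 8.08 ± 0.20 (SD, n = 3), a change of -1.69 ± 0.10 (3.22-fold, limma adjusted p = 1.21e-05). Its relatives Trib1 (-0.56 ± 0.07, or -0.36 as the average of its probe sets) and Trib3 (-0.29 ± 0.07) also fell. Ddit3, which encodes CHOP, a C/EBP relative that pairs with C/EBPβ and blocks its binding to DNA, rose from 10.55 ± 0.02 to 11.47 ± 0.07 (SD), by 0.92 ± 0.06 (limma adjusted p = 1.7e-05). Cebpg fell by 0.18 ± 0.05 (limma adjusted p = 0.0256), a call that held when starved replicate 2 was left out but not when any of the other arrays was (adjusted p of 0.0577 to 0.0922), nor for the average of its probe sets (0.365). Atf4 and the ubiquitin ligase gene Fbxw7 differed by -0.05 and 0.09 without passing.

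Among PPARs, their retinoid X receptor partners and cofactors, 6 of 15 fell and 2 rose (median -0.06). The corepressor gene Tle3, whose product also works with PPARγ in fat cell formation, fell by 0.94 ± 0.06 (limma adjusted p = 1.84e-05, average of its probe sets -0.59). The coactivator gene Ppargc1a (-0.73 ± 0.06) and the acetyltransferase gene Crebbp (-0.64 ± 0.11) fell as well. The retinoid X receptor genes differed in direction. Rxra fell by 0.41 ± 0.07 (limma adjusted p = 0.00172), and Rxrg differed by -0.02 without passing. Rxrb rose by 0.59 ± 0.06 (limma adjusted p = 0.000186). The other rise was that of the Mediator subunit gene Med1 (0.17 ± 0.06, limma adjusted p = 0.0479), which did not pass when any array other than control replicate 3 was left out (adjusted p from 0.0837 to 0.142), leaving 1 gene of the list that rose; the average of its probe sets was higher, at 0.41. Ncoa1, Nrip1 and Ncoa3 differed by -0.01, 0.12 and 0.06 without passing.

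Regulators known to promote adipogenesis rose in 8 and fell in 4 of 25 (median 0.12), with 5 that rose without cross-matching probe sets, those that may match several transcripts. The zinc finger factor gene Klf5 rose from 6.00 ± 0.30 to 7.46 ± 0.07 (SD), by 1.46 ± 0.14 (limma adjusted p = 0.000105, average of its probe sets 0.80), the growth factor gene Igf1 by 1.25 ± 0.10 and Klf6 by 0.94 ± 0.07. Klf15, a factor induced late in differentiation, fell from 7.26 ± 0.10 to 6.23 ± 0.17 (SD), a change of -1.03 ± 0.09 (limma adjusted p = 9.61e-05). The remaining falls were smaller, in Nfia (-0.36 ± 0.06), the receptor gene Bmpr1a (-0.26 ± 0.05) and Klf9 (-0.19 ± 0.06, limma adjusted p = 0.0313). No other Nfia probe set was called, and the average of its probe sets fell by 0.24 (limma adjusted p = 0.0146). The Klf9 call was lost without control replicate 2 or 3 or starved replicate 2 or 3 (adjusted p from 0.081 to 0.0992) and with the replicate number as a block (0.0769). The glucocorticoid receptor gene Nr3c1, Irs1 and Ebf1 differed by 0.16, 0.01 and -0.17 without passing, although the average of the Ebf1 probe sets passed at -0.31 (limma adjusted p = 0.000919).

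Regulators known to restrain adipogenesis rose in 7 and fell in 5 of 24 (median 0.05), with 11 that rose when probe sets of a gene were averaged and 3 that fell without cross-matching probe sets. Gata3, a factor that keeps precursors undifferentiated, rose by 0.76 ± 0.12 from a dim control level of 4.97, the Wnt ligand gene Wnt10b by 0.67 ± 0.08 and Tgfb1 by 0.65 ± 0.07 (limma adjusted p = 0.00171, 0.000312 and 0.000281). Those that fell were Sox9 (-0.72 ± 0.05), Gata2 (-0.62 ± 0.07), Nr2f2 (-0.37 ± 0.07), Hes1 (-0.32 ± 0.06) and the β-catenin gene Ctnnb1 (-0.23 ± 0.05, average of its probe sets -0.37). Sirt2, Zfp521 and Irf3 differed by -0.04, 0.01 and 0.09 without passing, although the average of the Irf3 probe sets passed at 0.22.

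**Figure D4:**
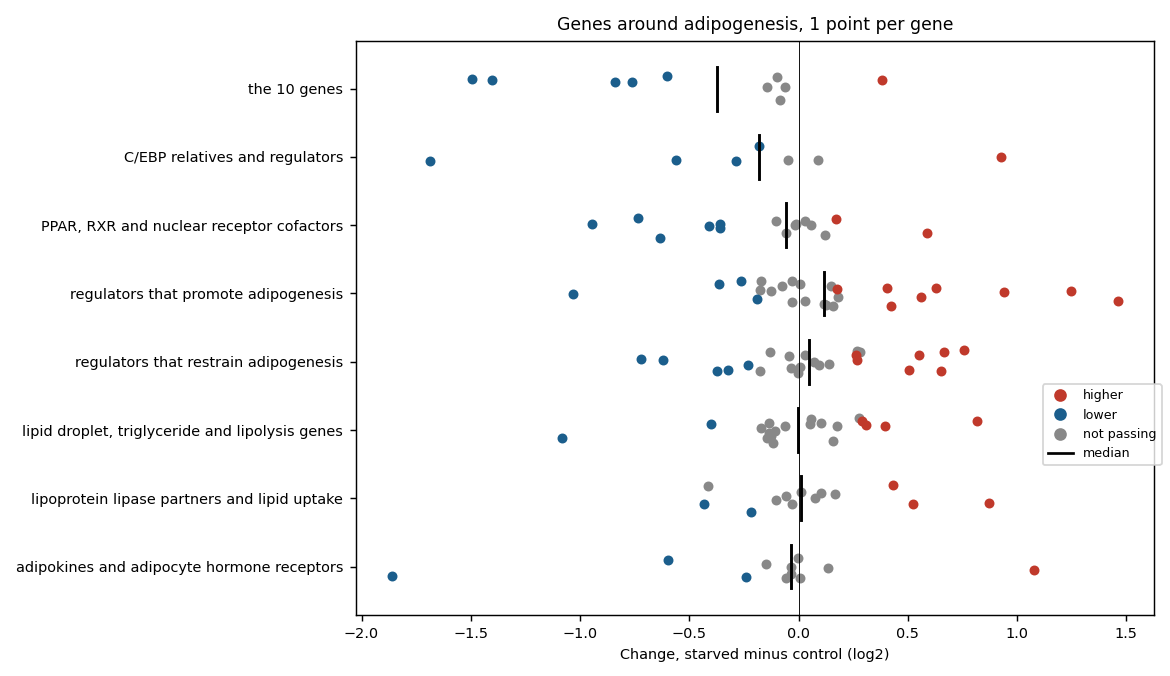
Change, starved minus control on the log2 scale, of each measured gene of the 10 and of the 7 lists, 1 point per gene (vertical position within a row is random); colour marks genes that passed and black bars mark medians. Each list holds genes on both sides of 0, and the median of the 10 genes is the lowest at -0.37. The 10 genes and the lists were chosen with earlier results of these data known.

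Genes of lipid droplets, triglyceride synthesis and lipolysis rose in 4 and fell in 2 of 20 (median 0.00), with 2 that rose without cross-matching probe sets. Pnpla2, which encodes the lipase ATGL that starts triglyceride breakdown, rose from 6.99 ± 0.11 to 7.80 ± 0.04 (SD), by 0.82 ± 0.07 (limma adjusted p = 6.68e-05); its other probe set was not called, and the mean of both rose by 0.44. G0s2, an inhibitor of ATGL, fell from 6.42 ± 0.23 to 5.34 ± 0.18 (SD), a change of -1.08 ± 0.13 (limma adjusted p = 0.000363). The droplet coat genes Plin3 (0.40 ± 0.06) and Plin2 (0.29 ± 0.05) and the phosphatase gene Lpin1 (0.31 ± 0.06) rose, the last of which was not called for the average of its probe sets (limma adjusted p = 0.365). Dgat2, which completes triglycerides, fell by 0.40 ± 0.12 (limma adjusted p = 0.0351). The Dgat2 call was lost without control replicate 1 or 2 or starved replicate 1 or 2 (adjusted p from 0.0734 to 0.113), leaving 1 gene that fell, and with the replicate number as a block (0.0609). The ATGL coactivator gene Abhd5 and the acyltransferase genes Gpam and Dgat1 differed by -0.13, -0.12 and 0.05 without passing. Abhd5 passed in some alternatives, where limma's adjusted p ran from 0.017 to 0.163 (0.0491 for the average of its probe sets).

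Partners of lipoprotein lipase and genes of lipid uptake rose in 3 and fell in 2 of 13 (median 0.01). The caveolin gene Cav1 rose by 0.87 ± 0.06 (limma adjusted p = 1.76e-05) and Fabp5, a relative of Fabp4, by 0.52 ± 0.05 (limma adjusted p = 0.00014). Of the factors that fold lipoprotein lipase, Lmf1 fell by 0.43 ± 0.07, and Sel1l rose by 0.43 ± 0.06 in its brightest probe set. Of the other Sel1l probe sets 2 were called higher and 1 lower, and the average of all 4 rose by 0.17 (limma adjusted p = 0.0265). The lipoprotein receptor gene Scarb1 fell by 0.22 ± 0.06 (limma adjusted p = 0.0213), a call lost without control replicate 1 or starved replicate 2 or 3 (adjusted p from 0.0508 to 0.0758), which left 1 gene that fell. Angptl4, a lipase inhibitor and PPAR target, Cavin1 and Lrp1 differed by 0.08, 0.17 and -0.41 without passing (limma adjusted p = 0.44, 0.0693 and 0.0521). Both Cavin1 and Lrp1 passed in some alternatives: limma's adjusted p ran from 0.0321 to 0.185 over the alternatives for Lrp1 and from 0.00441 to 0.272 for Cavin1, of which another probe set was called and the average of the probe sets differed by 0.07.

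Among adipokines and hormone receptors of fat cells, 3 of 11 fell and 1 rose (median -0.04), or 2 rose with an intensity trend and robust moderation. The peptide hormone gene Apln fell from 8.66 ± 0.24 to 6.80 ± 0.17 (SD), a change of -1.86 ± 0.13 (3.63-fold, limma adjusted p = 2.87e-05), and Rarres2, which encodes chemerin, fell by 0.60 ± 0.09 (average of its probe sets -0.36). Cdh13, which encodes the adiponectin-binding T-cadherin, rose by 1.08 ± 0.07 (limma adjusted p = 1.73e-05). The natriuretic peptide receptor gene Npr1 fell by 0.24 ± 0.07 at dim levels (3.79 in control), and this call was lost without control replicate 1 or 3 or starved replicate 2 or 3 (adjusted p from 0.0678 to 0.0725). The adiponectin receptor genes Adipor1 and Adipor2 differed by 0.01 and -0.04, and Nampt by 0.13, none of them passing.

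The genes whose 6 values, each taken relative to the control mean, came closest to those of Cebpd were Eva1c, the transporter gene Slco3a1 and the RNA-binding protein gene Sfpq. Their root mean square differences from Cebpd over 6 arrays were 0.05, 0.07 and 0.07 on the log2 scale, with changes of -1.51 ± 0.07, -1.48 ± 0.07 and -1.40 ± 0.06. This measure takes in the size of the change between the groups.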

How the data were processed

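RNA of starved and control cells was hybridised to 6 Affymetrix arrays. The values deposited by the authors are log2 levels per probe set, computed by RMA with affy (per the submitters' processing notes, which give no version here). Because RMA makes the arrays' distributions alike, it would hide a shift that most transcripts shared; array medians lay between 6.74 and 6.78. Precision is limited by the number of arrays.

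Of 22690 probe sets, none with a missing value, 64 controls were removed and 22626 were tested. The platform annotation gave 1 gene for 20380, several for 691 and no name for 1555. Groups follow the titles. Differences were fitted with limma 3.58.1 under R 4.3.3 (lmFit and eBayes, two-sided, no covariate) and Benjamini-Hochberg adjustment ran over all tested probe sets. A gene outside the 10 was represented by its probe set of highest mean. The fit was tested on simulated data with far fewer changed probe sets than were called here. Its error rates at the share called here were not tested. No batch record was used here, so any batch aligned with the groups and starvation cannot be told apart. Old symbols were updated through RefSeq synonyms. Plots used matplotlib 3.10.9 (Python 3.11.15). Alternatives covered dim probe sets, normalization, moderation, array weights, a replicate block, cross-matching probe sets, probe sets per gene, the threshold and each array left out.

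The 10 genes and the lists were chosen with earlier results of these data known. The naming rule took, per list, at most 4 called genes with the largest absolute change plus at most 3 uncalled genes with the highest level, and per marker list the 2 brightest. Cebpg, Rxra, Rxrg, Med1, Nfia, Bmpr1a, Klf9, Gata2, Nr2f2, Hes1, Ctnnb1, Plin2, Lpin1, Scarb1, Cidec, Retn, Ptprc, Adgre1 and Thy1 fall outside it and were named after their values were seen. The motifs were likewise chosen after the data were seen.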

Additional observations from a re-analysis of the deposited data

How the results depend on the processing

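All 9 probe sets called among the 10 genes kept their direction and their call in every alternative that included them; leaving out probe sets that may match several transcripts dropped 3 of them, leaving 5 lower and 1 higher, because it removes both called Fabp4 sets and 1 Cebpb set (and an uncalled set each of Pparg, Lpl and Cd36). That setting called 5716 probe sets in all, 2888 higher and 2828 lower. It also left 1 PPAR cofactor higher, 5 promoting regulators higher, 3 restraining regulators lower and 2 lipid droplet genes higher. Deviations of same-numbered arrays from their group means correlated at -0.09, 0.01 and -0.01. These values show no shared deviation, but 3 arrays per group cannot settle whether the cultures were paired. With a replicate block in the fit, 8168 probe sets were called (4225 higher, 3943 lower) and 10 of the 18, the dimmer Lpl set being added at -0.24. That Lpl set also passed without dim probe sets at -0.24, and ran from -0.32 to -0.17 with 1 array left out. The block left 1 PPAR cofactor higher and 1 lipid droplet gene lower. A second quantile normalization, and centring on array medians, each left 1 PPAR cofactor higher. Averaging a gene's probe sets gave 11 restraining regulators higher, and an intensity trend with robust moderation gave 2 adipokine genes higher. At an adjusted p of 0.01, 2 C/EBP relatives fell, 1 PPAR cofactor rose, and 1 lipid droplet gene and 1 lipase partner fell. With 1 array left out, 1 to 2 PPAR cofactors rose, 1 to 2 lipid droplet genes fell and 1 to 3 lipase partners fell. Values that changed sign were small and not called. A second quantile normalization gave 0.0202 for the dimmest Fabp4 set (Fabp4 1424155_at), -0.0136 for Irs1, -0.0173 for Zfp521 and -0.0098 for Adipor1. Centring gave -0.0116 for Irs1, -0.010 for Zfp521 and -0.0109 for Adipor1, and averaging probe sets gave -0.0696 for Adipor1 and -0.0114 for Nampt. Leaving out 1 array gave ranges of -0.0576 to 0.10 for the dimmest Fabp4 set, -0.11 to 0.0090 for the brighter Lpl set, and -0.37 to 0.0351, -0.14 to 0.0076 and -0.16 to 0.10 for the 3 Cd36 sets. The same ranges were -0.0423 to 0.0346 for Ncoa1, -0.0318 to 0.0591 for Irs1, -0.0022 to 0.0293 for Zfp521 and -0.0057 to 0.0218 for Adipor1. For markers they were -0.0799 to 0.14 (Kdr), -0.0609 to 0.12 (Des), -0.0251 to 0.21 (Sp7) and -0.14 to 0.0288 (Ptprc). The causes of these shifts were not tested. Signal near background limits Adipoq, Cd36 and the dim Fabp4 sets.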

Other observations

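Several pairs of related genes moved apart in the starved cells; the pairs were chosen after their values were seen, and no test of the pairs was made. For perilipin genes, the level of Plin2 minus that of Plin4, taken relative to its control mean, was -0.03, -0.02 and 0.06 in the control arrays and 1.18, 1.18 and 1.03 in the starved arrays, and for Plin3 minus Plin4 the starved values were 1.22, 1.28 and 1.21. All pair differences given here and below are likewise relative to their control means. For fatty acid carrier genes, Fabp5 minus Fabp4 was 1.89, 1.98 and 1.90 in starved arrays against -0.08, -0.04 and 0.12 in control arrays. Such a difference shows unequal change within an array.

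For lipolysis, Pnpla2 minus G0s2, relative to its control mean, was 1.74, 2.11 and 1.84 in starved arrays. In control arrays it was 0.16, 0.16 and -0.32, so that control replicate 3 lay below that mean. For zinc finger factors linked to adipogenesis, Klf5 minus Klf15, on the same relative scale, was 2.49, 2.68 and 2.32 in starved arrays. The control arrays were at 0.14, -0.25 and 0.11. In each of these pairs every starved array lay above every control array. The choice of pairs fixed this, since a gene that rose was set against a gene that fell, each without overlap. It therefore adds nothing to the changes of the single genes.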
